A study of Mus musculus with 8 samples.

Results

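The transcripts of Sort1, Stmn2, Unc13a, Poldip3, Dnajc5, Hdac6, Eif4h, Ppp3ca, Tsn and Adnp2, all targets of the RNA-binding protein TDP-43, were followed in mouse cortex. They were chosen by name as known TDP-43 targets, and they are 10 of the 28662 transcripts in the table. Earlier results of these data were known when the targets and the gene lists below were chosen. Counts set beside the share over all genes are therefore descriptive and were not tested. All 10 passed the threshold of 10 RPM, a unit of reads scaled to each mouse's total, in every mouse. RNA was sequenced from right cortex of 4 bigenic mice and 4 nontransgenic mice bred from hemizygous parents, all on the C57BL/6 background. Bigenic mice carried Camk2a-tTa and a tetO-driven human TDP-43 with a defective nuclear localization signal (deltaNLS-hTDP-43). The Camk2a promoter restricts the tTA activator, and so the transgene, to forebrain neurons, whereas the cortex samples held every cell type. Doxycycline, which keeps the transgene off, was given to both groups until 28 days of age, and cortex was taken 10 days after its removal. In each group 3 of 4 mice were male. Nothing says that the mice of a group came from separate litters, so p-values measure only the spread between these mice.

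TDP-43 shuttles between nucleus and cytoplasm and binds GU-rich stretches of RNA, most of them in introns. In the nucleus it controls inclusion of exons and blocks the use of cryptic ones, and it also acts on the stability and transport of mRNA. In amyotrophic lateral sclerosis and frontotemporal dementia it is lost from neuronal nuclei and aggregates in the cytoplasm. STMN2 and UNC13A are best known for human cryptic exons that appear when TDP-43 is lost, and Sort1, Poldip3, Eif4h and Dnajc5 for exons whose inclusion it changes. The values here are totals per gene, so exon inclusion was not analysed.

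GU-rich stretches near alternative exons are the sequence feature through which TDP-43 is known to act, so the clearest one of each gene is shown. In the mm9 assembly with GENCODE annotation, 6 of the 10 genes held 11 annotated cassette exons, internal exons that one transcript includes and another skips. The letters TGTGTG, searched on the sense strand with overlapping matches counted, were found in or within 300 bases of 6 of these 11 exons. Of all 7936 cassette exons in the genes tested, 41.4% held them, and the opposite strand held them for 2 of the 11 and for 24.5% of all. The Ppp3ca exon of 30 bases stood out, with 16 overlapping matches upstream and 1 downstream, while 4.56% of all cassette exons had 5 or more. Each window below has 30 bases, is printed 5′ to 3′ on the gene's strand, lies in an intron, and has the TGTGTG matches in capitals.
Ppp3ca, chr3:136594744-136594773 (+), 201 bases before the 30-base exon: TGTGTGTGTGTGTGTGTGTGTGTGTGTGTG
Sort1, chr3:108158265-108158294 (+), 95 bases before a 99-base exon: ggcaatgagggaagagTGTGTGggTGTGTG
Eif4h, chr5:135100380-135100409 (-), 9 bases before a 60-base exon: agccctcaacttgatctcttTGTGTGTGTG
Dnajc5, chr2:181283551-181283580 (+), 50 bases before a 75-base exon: gtgtgcagcccagggccttgtgagTGTGTG
Poldip3, chr15:82965935-82965964 (-), 115 bases before a 96-base exon: ccattgctctgctcttggttgagaTGTGTG
Unc13a, chr8:74179327-74179356 (-), 45 bases after a 6-base exon: gggggatctttcagctgtcaccccTGTGTG
The whole Ppp3ca exon, chr3:136594975-136595004 (+), is given in capitals because it is the exon with the most matches.
Ppp3ca exon: CTACTGTTGAGGCTATTGAGGCTGATGAAG
A match is a run of letters and was not tested as a binding site. Whether the exons shown are those that TDP-43 is known to act on was not checked. The other annotated cassette exon of Poldip3, of 87 bases, had no match. The 75-base Dnajc5 exon belongs to a transcript annotated as a target of nonsense-mediated decay, the pathway that degrades mRNA with an early stop. The other 5 exons with a window shown are in protein-coding transcripts. All the exons with a window shown, the Dnajc5 one included, have lengths that are multiples of 3.

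Longer TG runs, of at least 6 TG units, were present in 8 of the 10 genes and in 73.7% of all genes tested. Ppp3ca, which spans 268 kb, had 47 such runs on its sense strand, the longest of 60 bases. Unc13a had 6, Sort1 and Adnp2 had 4 each, Stmn2 had 3, and Eif4h, Hdac6 and Tsn had 2 each. No run of this length was found in Dnajc5 or Poldip3. Per 100 kb the median of the 10 genes was 10.8 runs against 7.71 for all genes. Stmn2, Hdac6, Tsn and Adnp2 had no annotated cassette exon.

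Values are given as normalized counts, the reads per gene as scaled between mice by the authors. Reads on genes, estimated from the spacing of the deposited values, numbered between 10.6 M and 31.9 M per mouse. The shallowest library was a bigenic mouse, and it stood apart: its median correlation with the other bigenic mice was 0.950, against 0.980 to 0.981 for the other 3. It also differed by base composition. Its log2 values relative to the other bigenic mice had a median of -0.25 in the fifth of genes with the lowest exon GC content and 0.27 in the fifth with the highest. Results for the target transcripts are therefore given with and without it, as are results for some of the other genes whose call changes without it. As a check of the labels, a transcript listed without a gene name (uc999vvf.1), taken to be the transgene, had 29375 to 41550 normalized counts in bigenic and 5 to 80 in nontransgenic mice. Endogenous Tardbp was lower in bigenic mice, with a log2 fold change of -0.33 ± 0.07 (SE, limma adjusted p = 0.00645).

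Of the 10 target transcripts, 5 fell in bigenic cortex and none rose by limma at an adjusted p below 0.05. Ppp3ca fell to 0.507 of its nontransgenic level, while Stmn2, Eif4h, Sort1 and Dnajc5 fell to between 0.799 and 0.827. Unc13a, Poldip3, Tsn, Adnp2 and Hdac6 did not pass the test. Among all 10588 genes tested, 15.4% were called lower, 20.5% higher and 35.9% in either direction. The count of 5 was sensitive to single mice: it was 1 without either of 2 nontransgenic mice, 2 or 3 without any of the other 5 deeper libraries, and 2 with no filter on low values. At an unadjusted p below 0.05 the counts were the same, with 5 lower and 0 higher. The median log2 fold change of the 10 was -0.22, beside 0.03 over all genes. Without the shallowest library 6 fell, Unc13a being added, and of all genes 20.3% were called lower, 25.3% higher and 45.6% in either direction. The groups did not overlap for 3 of the 10 (Ppp3ca, Sort1 and Dnajc5) and for 39.0% of all genes. Without that library they did not overlap for 6 of the 10 and for 48.4% of all genes.

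**Figure D1:**
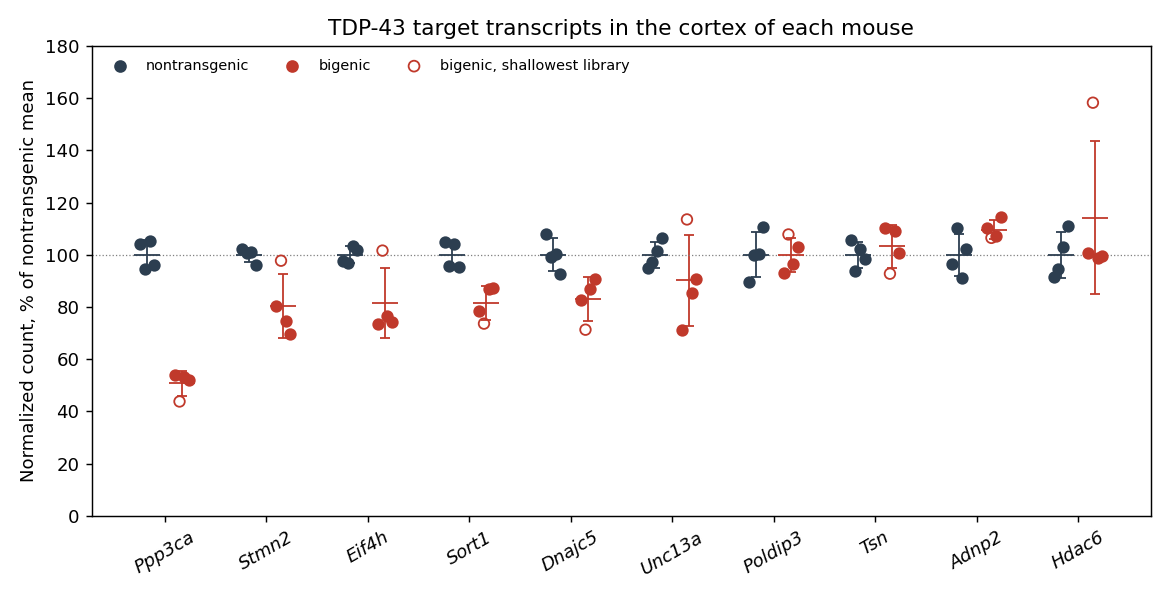
Normalized counts of the 10 target transcripts in each mouse, as a percentage of the nontransgenic mean, with bars for the group mean and SD (n = 4 each). Ppp3ca in bigenic mice lies far below every nontransgenic mouse. The open circle of the shallowest library lies above the other bigenic mice for Stmn2, Eif4h, Unc13a and Hdac6, among others. It lies below them for Ppp3ca and Dnajc5, among others.

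Ppp3ca encodes a catalytic subunit of calcineurin, the calcium-dependent phosphatase that acts at synapses and on NFAT transcription factors. In bigenic mice it measured 8258, 6690, 8127 and 7954 normalized counts, against 15918, 14441, 16086 and 14658 in nontransgenic mice. Every bigenic mouse was well below every nontransgenic mouse. The log2 fold change was -0.98 ± 0.08 (SE, adjusted p = 4.9e-05), a change larger than that of 97.2% of the genes tested. Its 95% interval, -1.17 to -0.79, did not reach that of any of the other 9 transcripts. Without the shallowest library, which had the lowest value, the log2 fold change was -0.91 (adjusted p = 2.27e-06).

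The other calcineurin genes were looked at as a group, and 5 of the 9 tested fell while none rose by limma, where 15.4% of all genes fell and 20.5% rose. This group was listed with earlier results of these data known, so the count is descriptive. Ppp3r1, the regulatory B subunit, went from 23203 ± 1678 normalized counts (SD, n = 4) to 11155 ± 674, a log2 fold change of -1.06 ± 0.08 (adjusted p = 2.46e-05). Some Ppp3r1 exons overlap Wdr92 on the same strand. Ppp3cb, the beta catalytic subunit, had the largest change of these and fell by 1.45 ± 0.14 on the log2 scale (adjusted p = 9.49e-05). Ppp3cc, the gamma catalytic subunit and the least abundant of these by normalized counts, fell by 0.34 ± 0.10 (adjusted p = 0.0289). All catalytic and regulatory subunits that were tested were thus lower, with no overlap between groups, as for 39.0% of all genes. Rcan2, a regulator that binds calcineurin, fell by 0.64 ± 0.13 (adjusted p = 0.00373). Akap5, the scaffold that anchors calcineurin at postsynaptic sites, fell by 0.64 ± 0.08 (adjusted p = 0.000416), though its exons overlap AC120002.1 on the opposite strand. Rcan1, Rcan3, Cabin1 and Nfatc3 did not pass, with log2 fold changes of -0.29, -0.03, 0.35 and 0.09. Rcan1 also passed without the shallowest library (-0.40, adjusted p = 0.0106). These genes other than Ppp3r1 were named after their values were seen.

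**Figure D2:**
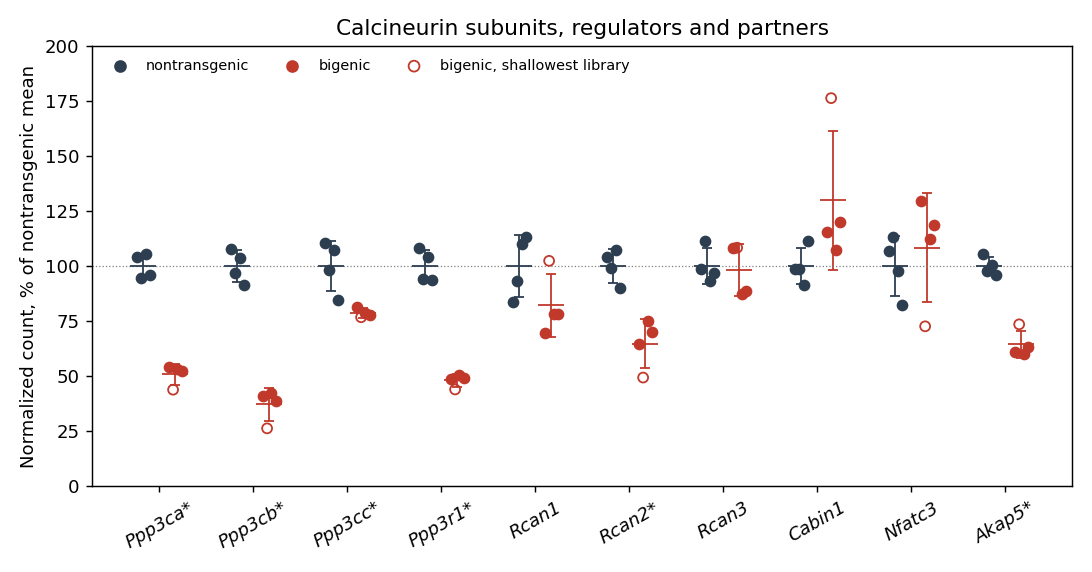
Normalized counts of Ppp3ca and 9 calcineurin-related genes in each mouse, as a percentage of the nontransgenic mean, with bars for the group mean and SD (n = 4 each) and asterisks for an adjusted p below 0.05. The subunits Ppp3ca, Ppp3cb, Ppp3cc and Ppp3r1 are below the nontransgenic range in all 4 bigenic mice.

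Ppp3ca and Sort1 had the smallest adjusted p of the 10, and the genes most like them were sought by Pearson's r of log2 values over the 8 mice. For Ppp3ca these included Gpm6a (r = 0.998) and Pgm2l1 (r = 0.997), with log2 fold changes of -1.27 and -1.01. For Sort1 they were Trhde (r = 0.995), Mdh2 (r = 0.992) and Pcdhac2 (r = 0.988), with log2 fold changes of -0.52, -0.33 and -0.64. All 8 mice enter each r, so the difference between the groups is part of it.

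Sort1 encodes sortilin, a sorting receptor that takes up progranulin and binds pro-neurotrophins. It measured 10573, 9908, 11689 and 11729 normalized counts in bigenic and 14113, 12870, 14001 and 12843 in nontransgenic mice. The groups did not overlap, although the highest bigenic and lowest nontransgenic mice were close. Its log2 fold change was -0.30 ± 0.08 (SE, adjusted p = 0.0159), and -0.25 (adjusted p = 0.0089) without the shallowest library. Some Sort1 exons overlap Gm12523 on the opposite strand, and the counting was not stated to use strand. The call was lost under quantile normalization (adjusted p = 0.0892) and held in 6 of 8 fits that each left out 1 mouse.

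None of 6 tested partners of sortilin passed by limma, where 35.9% of all genes were called in either direction. Grn, which encodes the sortilin ligand progranulin, had a log2 fold change of 0.38 ± 0.16 (adjusted p = 0.0883), and 0.20 (adjusted p = 0.063) without the shallowest library. Sorcs1, a related receptor, had the smallest adjusted p (0.18 ± 0.07, adjusted p = 0.053). It passed without the shallowest library (0.16, adjusted p = 0.0395), as did Sorcs2 (-0.29, adjusted p = 0.0349).

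Dnajc5 encodes cysteine string protein alpha, a co-chaperone of synaptic vesicles that works with Hsc70 on SNAP-25. Its values were 5809, 5017, 6126 and 6387 in bigenic and 7592, 6976, 7057 and 6521 in nontransgenic mice, in normalized counts. All bigenic mice were lower, but by a narrow margin. On the log2 scale Dnajc5 changed by -0.27 ± 0.09 (SE, adjusted p = 0.0381), and -0.20 (adjusted p = 0.0269) without the shallowest library. The call held in 4 of 8 fits that each left out 1 mouse. It was lost with rescaled totals (adjusted p = 0.0567), no filter (adjusted p = 0.0591) and quantile normalization (adjusted p = 0.0727). Of its 3 chaperone partners, Sgta rose, by 0.47 ± 0.07 (adjusted p = 0.00121), where 20.5% of all genes were called higher. Hspa8, which encodes Hsc70, and Sgtb did not pass, at -0.27 and -0.36.

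Stmn2 encodes stathmin-2, a neuronal regulator of microtubules needed for axon growth and maintenance. It measured 7668, 9335, 7140 and 6635 normalized counts in bigenic and 9759, 9634, 9646 and 9170 in nontransgenic mice. The other 3 bigenic mice were below every nontransgenic mouse, while the shallowest library, at 9335, lay inside the nontransgenic range. The log2 fold change was -0.32 ± 0.10 (SE, adjusted p = 0.032) with all mice and -0.42 (adjusted p = 0.000352) without that library. That was the only 1 of the 8 fits leaving out a mouse in which the call held. The call was also lost with no filter on low values (adjusted p = 0.0506). It was lost as well with a trend on GC content and length removed, a setting added after the data were seen (adjusted p = 0.117). Of the other stathmins, Stmn1 fell by 1.15 ± 0.28 (adjusted p = 0.0117), from 835 ± 158 to 399 ± 172 normalized counts (SD, n = 4). Across all genes tested, 15.4% were called lower. Only 59.5% of the 50-base windows of Stmn1 exons are unique in the genome, so its level is uncertain. Stmn3 and Stmn4 had log2 fold changes of 0.03 and 0.05, and Stmn3 passed as lower without the shallowest library (-0.16, adjusted p = 0.0467).

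Eif4h encodes a cofactor that stimulates the RNA helicase eIF4A during translation initiation. Its values were 4590, 6337, 4770 and 4628 in bigenic and 6087, 6051, 6448 and 6362 in nontransgenic mice, in normalized counts. The picture resembled that of Stmn2, since only the shallowest library reached the nontransgenic range. With all mice it changed by -0.31 ± 0.11 on the log2 scale (SE, adjusted p = 0.0449), and -0.42 (adjusted p = 0.000147) without it. Leaving out any other mouse ended the call, as did no filter on low values (adjusted p = 0.0645). Other members of the cap-binding machinery moved in both directions, with 3 of 7 higher and 1 lower. Of all genes 20.5% were called higher and 15.4% lower. Eif4g3, Eif4g1 and Eif4b, which encode scaffolds and another eIF4A cofactor, rose by 0.56 ± 0.13 (adjusted p = 0.00955), 0.45 ± 0.11 (adjusted p = 0.0118) and 0.31 ± 0.08 (adjusted p = 0.0167). Eif4a2, a helicase paralogue, fell by 0.27 ± 0.08 (adjusted p = 0.0292), though its exons overlap Rfc4 on the opposite strand. Of the 50-base windows of Eif4b and Eif4a2 exons, 87.5% and 83.6% are unique in the genome.

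Unc13a encodes Munc13-1, which primes synaptic vesicles for release. It measured 7490, 11925, 8946 and 9513 normalized counts in bigenic and 9974, 10197, 10671 and 11172 in nontransgenic mice. The shallowest library gave the highest value of all mice, and the other 3 bigenic mice gave the lowest. With all mice the log2 fold change was -0.17 ± 0.13 (SE, adjusted p = 0.315), and without that library it was -0.29 (adjusted p = 0.0159). With a trend on GC content and length removed from each mouse, a setting added after the data were seen, it was -0.33 in all 8 mice (adjusted p = 0.00735).

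Of 8 tested partners of Munc13-1 in vesicle release, 4 fell and none rose, where 15.4% of all genes fell and 20.5% rose. Unc13c, the paralogue Munc13-3, fell by 0.98 ± 0.14 (adjusted p = 0.000655), from 1621 ± 197 to 828 ± 149 normalized counts (SD, n = 4). Stx1a and Snap25, both plasma membrane SNAREs, fell by 0.83 ± 0.14 (adjusted p = 0.00174) and 0.38 ± 0.11 (adjusted p = 0.0231). Unc13b, the paralogue Munc13-2, did not pass, at -0.17. Without the shallowest library Rims1 (-0.48, adjusted p = 0.000222) and Vamp2 (-0.57, adjusted p = 0.0001) also passed, and 20.3% of all genes were called lower.

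Hdac6 encodes the cytoplasmic deacetylase of tubulin that carries ubiquitinated aggregates to aggresomes. Its values were 1041, 1636, 1019 and 1028 in bigenic and 946, 976, 1065 and 1148 in nontransgenic mice, in normalized counts. The shallowest library was alone in its high value, and the other bigenic mice fell inside the nontransgenic range. The log2 fold change was 0.16 ± 0.15 (SE, adjusted p = 0.42), with an interval of -0.17 to 0.50, and -0.002 (adjusted p = 0.985) without it. Its 5 related genes are to be read beside the 20.5% of all genes called higher and 15.4% called lower. Among them Hdac5, a class II deacetylase, rose by 0.58 ± 0.12 (adjusted p = 0.00504) and Sirt2, another tubulin deacetylase, by 0.37 ± 0.11 (adjusted p = 0.0262). Some Sirt2 exons overlap Nfkbib on the opposite strand. Hdac2, a class I deacetylase of chromatin, fell by 0.30 ± 0.07 (adjusted p = 0.0105). Hdac3 did not pass with all mice (adjusted p = 0.0775) but was lower without the shallowest library (-0.17, adjusted p = 0.0311).

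Poldip3, Tsn and Adnp2 did not pass in any of the settings tried. Poldip3, which links S6 kinase to newly spliced mRNA, measured 1105, 1278, 1142 and 1220 normalized counts in bigenic and 1061, 1184, 1187 and 1311 in nontransgenic mice. Its log2 fold change was 0.00 ± 0.09 (SE, adjusted p = 0.985), with an interval of -0.19 to 0.20. The groups overlapped almost fully. Tsn encodes translin, a nucleic acid-binding protein that acts with translin-associated factor X. It measured 2284, 1923, 2265 and 2087 in bigenic and 2188, 1945, 2117 and 2043 in nontransgenic mice, in normalized counts. Its change on the log2 scale was 0.04 ± 0.08 (SE, adjusted p = 0.698), with an interval of -0.14 to 0.22. Adnp2, a homeobox gene related to Adnp, was slightly higher on average but its groups overlapped. Its values were 797, 769, 774 and 826 in bigenic and 698, 796, 658 and 737 in nontransgenic mice, in normalized counts. The log2 fold change was 0.13 ± 0.08 (SE, adjusted p = 0.216), with an interval of -0.05 to 0.32. Their partners Eif4a3 (-0.10, adjusted p = 0.452) and Adnp (-0.13, adjusted p = 0.182) did not pass either, and Tsnax, the partner of Tsn, was not among the genes tested.

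**Figure D3:**
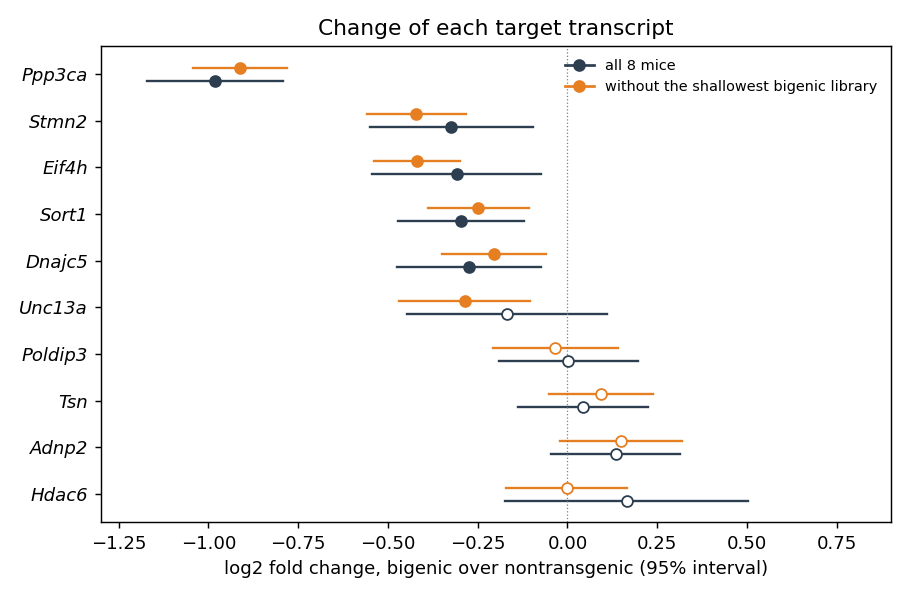
Log2 fold change of each target transcript with its 95% interval, for all 8 mice and without the shallowest bigenic library, filled where the adjusted p is below 0.05. Unc13a is filled without that library and open with it, and Hdac6 moves from 0.16 to about 0.

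Per kilobase of exon, the nontransgenic level ran from Stmn2 at 5017 ± 137 normalized counts per kb (SD, n = 4) to Adnp2 at 172 ± 14.04. Ppp3ca followed Stmn2 at 2771 ± 153, and Eif4h, at 2569 ± 81.4, overlapped it. Sort1 at 1780 ± 91.9, Unc13a at 1226 ± 62.1, Dnajc5 at 1012 ± 63.2 and Tsn at 682 ± 34.2 did not overlap their neighbours in this order. Poldip3 at 209 ± 18.0 overlapped Hdac6 at 178 ± 15.7, which overlapped Adnp2. In bigenic mice Ppp3ca was at 1407 ± 131 normalized counts per kb, beside Sort1 at 1452 ± 118. The 5 transcripts called lower were among the 6 with the highest levels per kb.

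**Figure D4:**
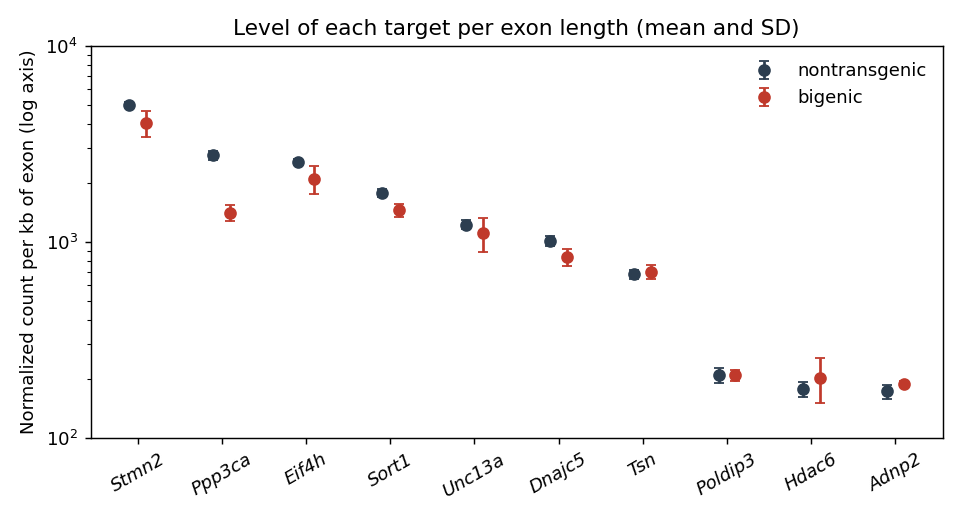
Mean normalized count per kilobase of exon for each target transcript, with the SD (n = 4 each), on a log axis. The bigenic mean of Ppp3ca falls to about that of Sort1, while for Unc13a, Tsn, Poldip3, Hdac6 and Adnp2 the bars of both groups overlap.

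Other genes tied to TDP-43 were grouped by how the protein is reported to act on them, and their counts are to be read beside the 15.4% of all genes called lower and 20.5% called higher. Among neuronal genes with long introns, 3 of 7 fell and none rose, and the median was -0.21 on the log2 scale. Without the shallowest library 3 fell and 1 rose, and the median was 0.03. Kcnd2, an A-type potassium channel, fell by 0.52 (adjusted p = 0.000957) and Nrxn3, a presynaptic adhesion molecule, by 0.44 (adjusted p = 0.00105). Among transcripts reported as bound for stability, transport or translation, 4 of 8 fell and none rose, with a median of -0.16. Leaving out 1 of 4 other mice, 2 bigenic and 2 nontransgenic, lowered the count to 2, and without 1 of those bigenic mice 2 rose. Besides Tardbp, Rac1, a small GTPase of the actin cytoskeleton, fell by 1.005 (adjusted p = 0.0105), with 80.3% of its windows unique in the genome.

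Among other mouse genes with exons under TDP-43 control, 3 of 8 fell and none rose, with a median of -0.19. Without the shallowest library 4 fell and 2 rose. Ahi1, a gene of the primary cilium, fell by 1.17 (adjusted p = 0.000103) and Camk1g, a calcium-dependent kinase, by 0.81 (adjusted p = 0.0156). Of the mouse orthologues of genes with human cryptic exons 7 of 19 rose, none fell and 12 did not pass, and their median of 0.02 was close to the 0.03 of all genes. Arhgap44, a GTPase-activating protein, rose by 0.93 (adjusted p = 0.000657), though its exons overlap Elac2 on the opposite strand. Rap1gap, a GTPase-activating protein for Rap1, rose by 0.37 (adjusted p = 0.00541), a call lost with the GC and length trend removed (adjusted p = 0.132). Without the shallowest library 7 rose and 2 fell. The counts of this list depended on the setting, with 4 higher and 6 lower once the GC and length trend was removed, 8 and 5 with array weights, and 5 and 3 under quantile normalization. Leaving out each mouse gave 2 to 7 higher. The difference between lists was not tested.

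**Figure D5:**
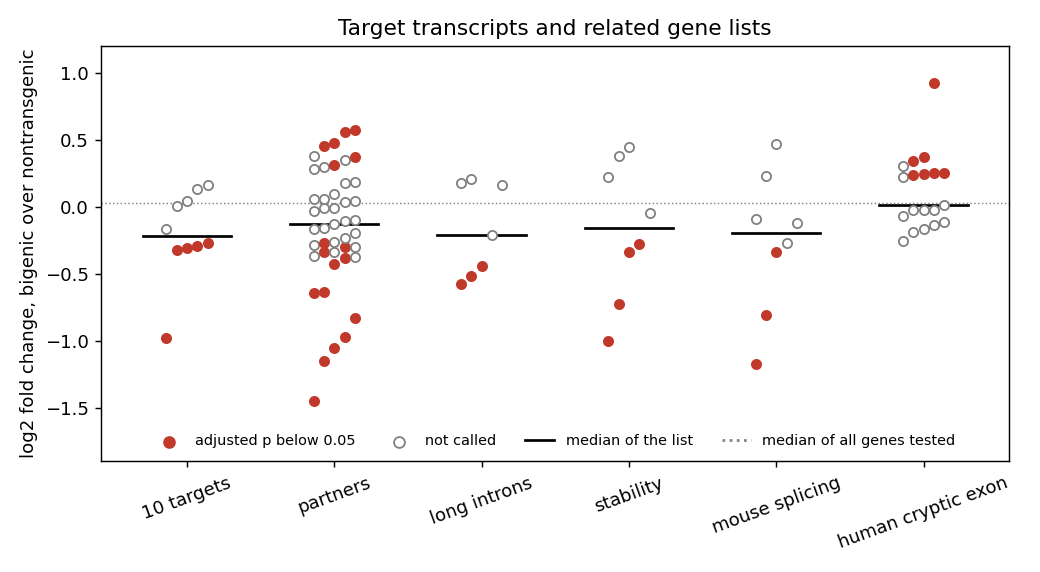
Log2 fold change of each gene in the 10 target transcripts and in 5 related lists, filled where the adjusted p is below 0.05, with the median of each list and of all genes tested (0.03). With all 8 mice, filled points are all below 0 in the targets and in the long intron, stability and mouse splicing lists, and all above 0 in the human cryptic exon list.

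The samples were bulk tissue, in which fewer cells of a type and less RNA per cell cannot be told apart. Counts of markers are to be read beside the 15.4% of all genes called lower and 20.5% called higher. Of 10 tested neuronal markers 5 fell and 1 rose, and their summed level was 132745 to 183700 normalized counts in bigenic and 181930 to 198940 in nontransgenic mice. The 3 deeper bigenic libraries summed to at most 139226, while the shallowest, at 183700, was inside the nontransgenic range. Snap25, Syt1 and Camk2a had the highest values and weigh most in this sum, and they differed in the shallowest library. There Snap25, at 53348, was inside the nontransgenic range of 50441 to 56620. Syt1, at 36369, was below its range of 38951 to 48680, and Camk2a, at 30548, was below 44895 to 49794. Astrocyte markers fell in 4 of 8 cases (119910 to 141700 against 149210 to 160540) and microglial markers in 5 of 8 (4261 to 5251 against 5500 to 6412). None of the tested markers was at 0. Endothelial markers fell in 2 of 5 cases (2979 to 3428 against 3379 to 4305), and of 8 oligodendrocyte markers 1 rose. Of 3 tested markers of choroid plexus epithelium 2 rose, Kl by 2.25 and Clic6 by 2.40 on the log2 scale (adjusted p = 7.87e-05 and 0.000403), more than any target transcript changed. The part of cell composition in the changes of the target transcripts was not tested.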

How the data were processed

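The authors trimmed adaptors with cutadapt, mapped 50-base single-end reads to mm9 with Bowtie 0.12.7, kept uniquely mapping reads, and counted them on exons with bedtools. The deposited table holds normalized counts rounded to whole numbers, a score rather than raw counts, so a count test was not run. How they were scaled is not given in the sources used here. Another deposited table holds the authors' DESeq2 fold changes and p-values and was used for gene symbols only. Columns name the group but not the replicate number of the labels.

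Genes with at least 10 RPM (scaled to the column total) in at least 1 mouse were kept (10588). Values were taken as log2(value + 1), and groups of 4 were compared with limma 3.58.1 (lmFit, eBayes with trend) in R 4.3.3, with Benjamini-Hochberg adjustment over all genes and a threshold of 0.05. A fold change is given on that scale, where the pseudocount shrinks the changes of genes with low values. On simulated data 84 of 98 genes doubled or lowered by the same factor, 36 of 99 raised or lowered 1.41-fold and 8 unchanged genes were called among 10383. Far fewer genes were changed there than the 3796 called in the data, and no library was made to stand apart. These shares are therefore not the power for the target transcripts. Reads per mouse came from the spacing of values (8 of 8 simulated columns were recovered within 1%).

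The members and lists were chosen with earlier results of these data known. Besides the 10 members, the genes named by rule are Tardbp, the transgene transcript, the partner of each member with the smallest adjusted p, the 2 such genes of each other list, and the 3 genes most like Ppp3ca and Sort1. Some genes that these rules or lists hold are not reported here by name. Others were named after their values were seen. Exons, overlaps and sequences came from the mm9 genome and GENCODE, which held 96.3% of the symbols tested. Alternatives were pseudocounts of 10 and 0.1, no filter, a filter in every mouse, rescaled totals, quantile normalization, array weights and leaving out each mouse. Removing a trend on GC content and length was added after the data were seen.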

Additional observations from a re-analysis of the deposited data

Results flagged for a closer look

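Values were screened for a mouse lying far from the others of its group, over 28 named genes and 56 groups of 4 mice. Chance alone would give such a value in about 1 in 20 groups, and 3 of the 56 were found, which is near that rate. All 3 came from the bigenic mouse with the shallowest library. For Hdac6 it had 1636 normalized counts where the other bigenic mice had 1019 to 1041. For Eif4h it had 6337 where the others had 4590 to 4770, and for Eif4g3 it had 12239 where the others had 7916 to 8132. The exons of Eif4h, Hdac6 and Eif4g3 are 54.4%, 52.9% and 50.2% GC, and this library was high for GC-rich genes in general. This library was also high for Stmn2, at 45.8% GC, by 0.39 on the log2 scale over the other bigenic mice. The part of base composition in these 3 values was not tested.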

How the results depend on the processing

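Ppp3ca was called lower in all 8 fits that left out a mouse and under all 8 other settings. The count of target transcripts called lower, 5 in all mice, was 2 with no filter on low values (Ppp3ca and Sort1), 3 under quantile normalization, 4 with rescaled totals, and 1 to 6 when each mouse was left out. It was 1 without either of 2 nontransgenic mice and 6 without the shallowest bigenic library, and no fit called any of the 10 higher. Leaving out a mouse kept the call of Sort1 in 6 of 8 fits, of Dnajc5 in 4, and of Stmn2 and Eif4h in 1 each. With the GC and length trend removed the count was 5, with Unc13a in (adjusted p = 0.00735) and Stmn2 out (adjusted p = 0.117). Over the related lists, 13 genes were called higher and 22 lower, against 22 and 35 with array weights. When each mouse was left out the higher count ranged from 7 to 17 and the lower count from 15 to 31. Among the 10 target transcripts the sign changed for 3, none of them called. Poldip3 was -0.048 under quantile normalization, -0.031 with the GC and length trend removed, and -0.050 to 0.052 when mice were left out. Tsn was -0.018 under quantile normalization, and Hdac6 ranged from -0.0021 to 0.23 when mice were left out. Calls over all genes numbered 3796 of 10588, and 6455 with array weights. They were 4153 of 20912 with no filter and ranged from 2654 to 4782 when each mouse was left out. Where a value moved, the cause was not tested. No paired analysis was possible because the columns carry no replicate numbers of the labels.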
